A study of Mus musculus with 3 samples.

Results

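Leukocyte adhesion was followed here through 8 genes of the 27998 in the deposited matrices. Vcam1, Icam1 and Sele encode 3 ligands carried by the wall that leukocytes bind to, and Itga4, Itgb1, Itgal, Itgam and Itgb2 encode the 5 integrin subunits that form the main receptors on leukocytes. The 8 genes were chosen for these roles by name, with no threshold on their values. Unique molecular identifiers (UMIs), each of which marks 1 captured mRNA molecule, were summed per library and cell class, and levels are given as CPM, the UMIs of a gene per 1000000 UMIs of that class.

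The libraries were single-cell RNA sequencing libraries of whole kidneys 14 days after folic acid (FA), which injures tubules and leaves fibrosis. There were 2 libraries from mice that lack acyloxyacyl hydrolase, an enzyme that detoxifies bacterial lipopolysaccharide (Aoah-/- mouse 2 and Aoah-/- mouse 3), and 1 from a wild-type mouse (WT mouse 3). The mice were 6 to 8 weeks old by their labels, while the study's text gives an older range for its FA-treated mice, every mouse had received FA, and no untreated kidney was among these samples. The knockout was global, on a C57/BL6J background with littermate WT controls, so that any difference between genotypes could arise in any cell type, and a single WT library means that the spread among WT mice was not measured.

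Leukocytes leave the blood in steps. E-selectin (Sele) on activated endothelium captures rolling cells through glycans on proteins such as PSGL-1 (Selplg) and CD44, after which chemokines switch on integrins that grip immunoglobulin-family ligands. The integrin of the α4 and β1 chains (Itga4 with Itgb1, VLA-4) binds VCAM1, whereas the αL chain (Itgal, in LFA-1) and the αM chain (Itgam, in Mac-1) each pair with β2 (Itgb2) and bind ICAM1. In kidney, injured tubular cells are also known to carry VCAM1 and ICAM1, which makes the tubule a second possible partner for leukocyte integrins.

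The genes lie on 7 chromosomes of the mouse (GRCm38, GENCODE M21). Vcam1 is at chr3:116109949-116129688 on the minus strand, and the others are on the plus strand: Icam1 at chr9:21015985-21028817, Sele at chr1:164048234-164057677, Itga4 at chr2:79255426-79333123, Itgb1 at chr8:128685654-128733200, Itgal at chr7:127296260-127335138, Itgam at chr7:128062640-128118491 and Itgb2 at chr10:77530252-77565708. RefSeq promoters (GRCm38.p6) were matched for 5 of the 8 genes, and no entry was matched for Vcam1, Itgal and Itgb2. The 250 bases before the RefSeq start of Icam1, Sele and Itgam are shown because Icam1 and Sele were high together in 1 endothelial subcluster and Itgam was highest in myeloid classes. Capitals mark GGNNNTTCC on either strand (the letters of an NF-kB site, a factor of inflammatory induction) in Icam1 and Sele, and GAGGAA on either strand (the core bound by PU.1, a factor of myeloid cells) in Itgam. The RefSeq start of Icam1 lies 45 bases upstream of the GENCODE start given above, whereas both starts are the same for Sele and Itgam.
Icam1, chr9:21015690-21015939, plus strand: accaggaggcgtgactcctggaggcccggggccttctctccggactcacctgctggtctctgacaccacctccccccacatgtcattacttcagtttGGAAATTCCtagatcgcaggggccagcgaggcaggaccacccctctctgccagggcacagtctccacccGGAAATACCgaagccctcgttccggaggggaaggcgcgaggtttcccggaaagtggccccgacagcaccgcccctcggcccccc
Sele, chr1:164047984-164048233, plus strand: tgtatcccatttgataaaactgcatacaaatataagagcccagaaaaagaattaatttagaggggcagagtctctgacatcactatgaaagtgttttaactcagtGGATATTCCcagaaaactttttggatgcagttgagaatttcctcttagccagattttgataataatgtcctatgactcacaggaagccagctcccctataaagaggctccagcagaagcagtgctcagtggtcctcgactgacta
Itgam, chr7:128062390-128062639, plus strand: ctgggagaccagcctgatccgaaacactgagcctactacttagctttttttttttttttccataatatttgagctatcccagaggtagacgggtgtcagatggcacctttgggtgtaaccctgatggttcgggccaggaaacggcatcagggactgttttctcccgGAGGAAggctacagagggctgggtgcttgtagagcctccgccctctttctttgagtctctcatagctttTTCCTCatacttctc
The Icam1 stretch held 3 matches in 2 places, the first of them read on both strands and beginning 153 bases before the RefSeq start, and the Sele stretch held 1 match, beginning 145 bases before it. The Itgam stretch held 2 matches to GAGGAA, 84 and 15 bases before the start and on opposite strands. Sele also held 1 match to GAGGAA, 107 bases before its start and left in lower case, Itgb1 held 1 match to each motif and Itga4 held none. Among all 32851 promoters of the table, 15.7% held the first motif and 23.3% held the second, so that a match is a description of the letters and not a site.

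The libraries held 23072 to 25516 barcodes and 158551992 to 167222984 UMIs, and 18202 to 21368 cells per library were kept, with median totals of 3357 to 3859 UMIs. Leiden clustering without the 8 genes, 35 other adhesion genes and Aoah gave 33 clusters, and 87.0% of kept cells fell into 18 classes named from fixed markers. That share pools the libraries. An unnamed cluster led by Klk1, Il1b and Umod took up 16.0% of Aoah-/- mouse 3 (3153 cells). In Aoah-/- mouse 2 it was 0.824% (176 cells), and in WT mouse 3 it was 0.467% (85 cells). It scored best as ascending limb, with macrophage next, and had 18 proximal tubular markers at 2-fold. Its cells were in no named class and so lay outside the comparisons of classes. Markers of podocytes, thin limb, mesothelium and platelets named no cluster. Any pair of libraries shared 109 to 117 barcodes among kept cells. Over all kept cells Aoah itself was at 6.8 and 6.2 CPM in the Aoah-/- libraries against 18.2 CPM in the WT library, lower but not 0. The study names proximal tubular epithelial cells as a main source of Aoah. Cells given that name here were 38.7%, 25.4% and 52.3% of Aoah-/- mouse 2, Aoah-/- mouse 3 and WT mouse 3. The part of this make-up in the Aoah values was not tested.

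The 3 ligands differed among themselves in where their transcripts lay, and Icam1 shared granulocyte- and other myeloid classes with the β2 integrins. In Aoah-/- mouse 2, Aoah-/- mouse 3 and WT mouse 3, injured tubule-like cells held 39.6%, 32.8% and 34.4% of all Vcam1 UMIs although they were 0.459%, 0.833% and 0.313% of kept cells. The exact Clopper-Pearson 95% intervals of these shares of UMIs were 38.1% to 41.1%, 31.7% to 34.0% and 32.6% to 36.2%, and they cover counting error only. Macrophage-like cells held another 18.3%, 23.6% and 23.0%, endothelial-like cells 10.1%, 13.4% and 12.4%, and proximal tubular epithelial (PTEC)-like cells 10.5%, 6.04% and 6.83%. Sele UMIs, of which there were 358 in all kept cells, lay for 74.6%, 88.4% and 83.1% in endothelial-like cells. Icam1 had no main source, and no class or cluster held more than 23.1% of its UMIs in a library.

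**Figure D1:**
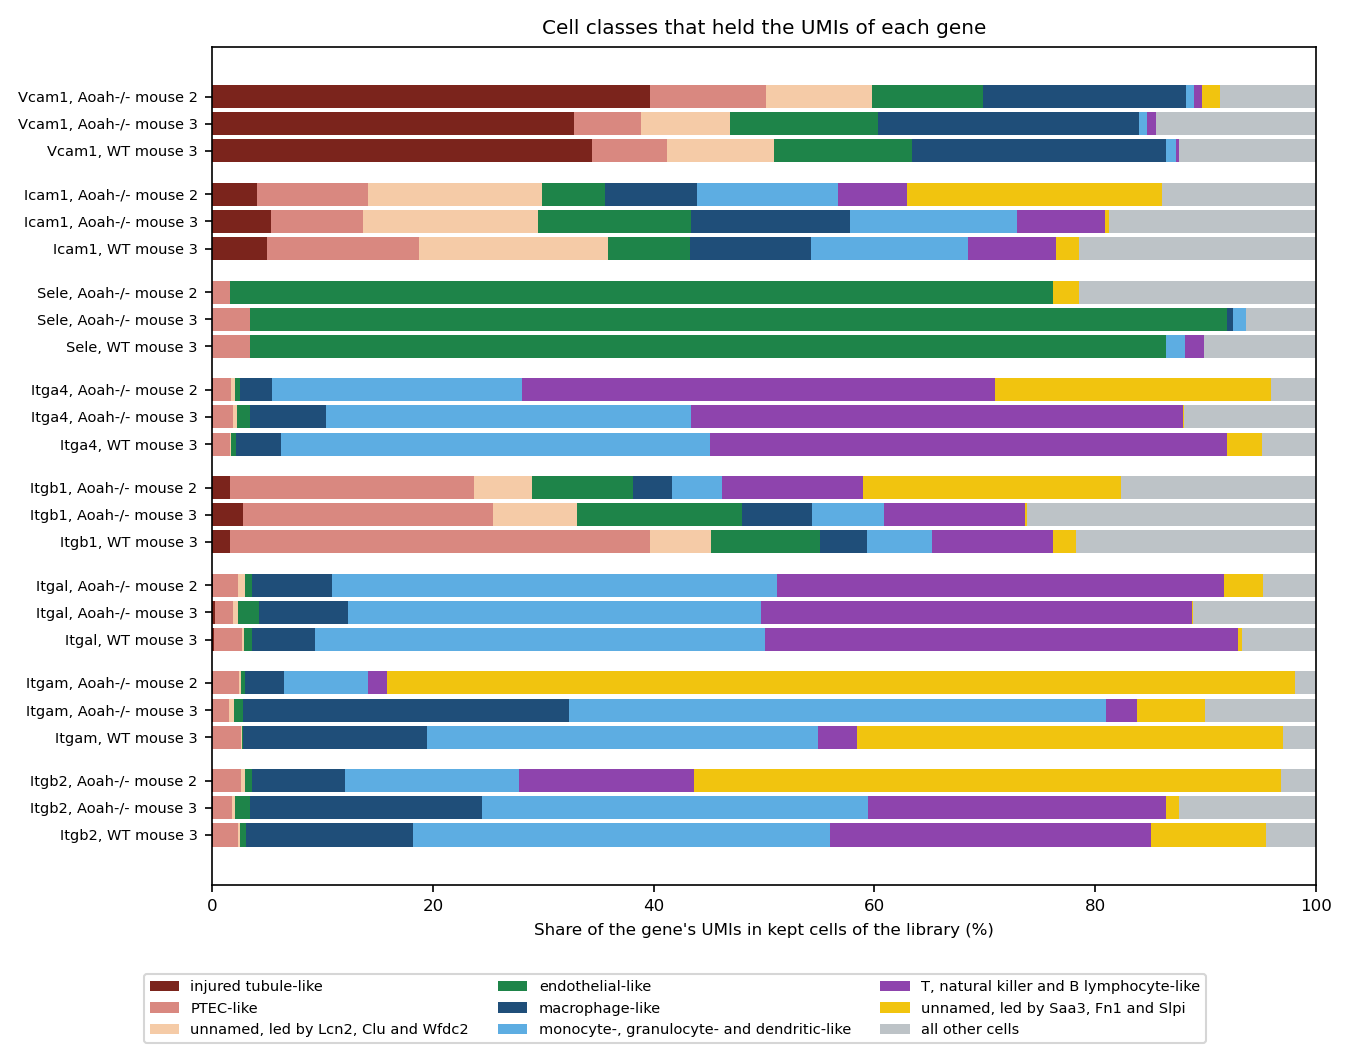
Each bar is 1 gene in 1 library and shows the percent of that gene's UMIs, in kept cells, that lay in each group of cell classes. Injured tubule-like cells lead for Vcam1 (32.8% to 39.6%), endothelial-like cells for Sele (74.6% to 88.4%), leukocyte classes for Itga4 and Itgal, and an unnamed cluster led by Saa3, Fn1 and Slpi for Itgam in Aoah-/- mouse 2 (82.3%).

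Vcam1 was highest by far in injured tubule-like cells. This class was formed only within a mixed cluster of 697 cells, whose leading genes included Vcam1. It took subclusters with at least 6 of 9 injury genes (Havcr1, Krt20, Lcn2, Clu, Spp1, Sox9, Krt18, Krt8 and Sox4) at 4-fold, and Vcam1 itself was not used. After scaling for cells per library, at most 80% of a subcluster could come from 1 library. Subclusters led by Lyz2, Umod and Apoe (7 injury genes) and by Vcam1 and Cenpf (6) passed the gene rule only. Aoah-/- mouse 3 made up 96.9% and 92.8% of them, and they were left out of the class. Outside the mixed cluster the gene rule was not applied. The principal-like cluster had 6 of these genes at 4-fold, with 0.962 to 3.08 CPM of Vcam1. The unnamed cluster led by Lcn2, Clu and Wfdc2 had 7, with its Vcam1 given below. In injured tubule-like cells Vcam1 stood at 1037 CPM in Aoah-/- mouse 2, 933 CPM in Aoah-/- mouse 3 and 864 CPM in WT mouse 3. Macrophage-like cells followed with 140, 188 and 134 CPM, and endothelial-like cells with 88.3, 129 and 97.5 CPM. The ranges of these classes did not overlap over the 3 libraries, with means of 945 ± 87.1, 154 ± 29.7 and 105 ± 21.6 CPM (SD, n = 3). Below them came dendritic-like cells at 7.13 to 8.14 CPM, and from that rank down each class overlapped the next, PTEC-like cells included. Clusters and their names came from the same cells, so the order of classes is a description and was not tested.

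**Figure D2:**
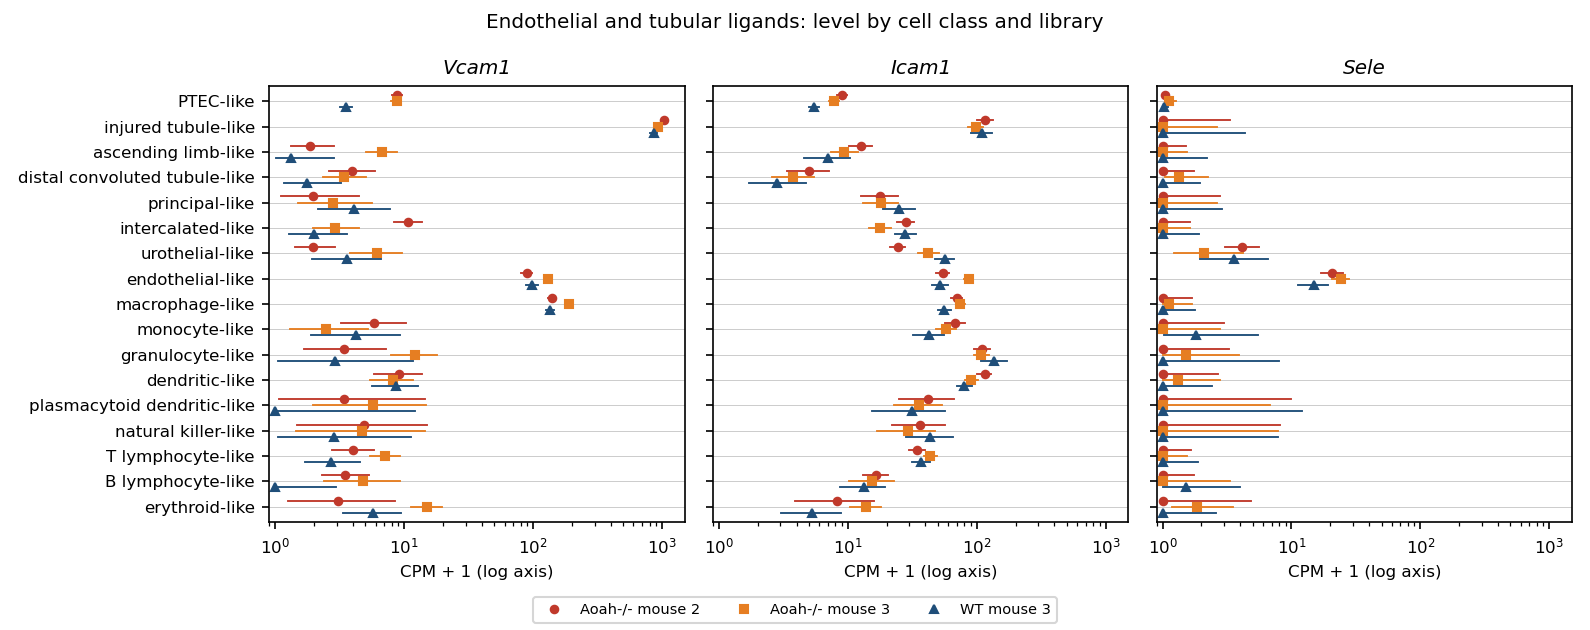
Levels of Vcam1, Icam1 and Sele in the 17 classes with at least 50 cells per library, as CPM + 1 on a log axis, with 1 symbol per library and bars for exact Poisson 95% intervals (counting error only). Vcam1 stands at 864 to 1037 CPM in injured tubule-like cells and at 88.3 to 188 CPM in endothelial- and macrophage-like cells, Icam1 is spread over injured tubule, endothelial and myeloid classes, and Sele is high in endothelial-like cells alone (13.9 to 23.1 CPM).

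The injured tubule-like class joined 3 subclusters, and all of them carried Vcam1. The subcluster led by Ccl2, a monocyte chemokine, and holding Havcr1, the gene of the injury marker KIM-1, had 1609, 1158 and 1183 CPM of Vcam1 in Aoah-/- mouse 2, Aoah-/- mouse 3 and WT mouse 3. The subcluster led by the small heat-shock gene Hspb1 had 981, 1019 and 854 CPM, and the one led by the complement gene C3 had 564, 643 and 659 CPM. Beside them, an unnamed subcluster led by Mgp, Tagln and Akap12 had 419, 331 and 373 CPM, and one led by Vcam1 and the mitotic gene Cenpf had 529 CPM in Aoah-/- mouse 3, where 28 of its 30 cells lay. After every cell was thinned to 1000 UMIs, 49 of 98 (39.7% to 60.3%, exact Clopper-Pearson 95% interval), 71 of 164 (35.6% to 51.2%) and 21 of 57 (24.4% to 50.7%) injured tubule-like cells still held a Vcam1 UMI. The share in ascending limb- and distal convoluted tubule-like cells, taken as the background of free RNA, was 0.223%, 0.623% and 0.117%. Both classes are tubule of the same kidneys and each had 4 injury genes at 4-fold, so they were not shown to measure free RNA alone. These injured cells were deep, with median totals of 11992 to 16792 UMIs, and before thinning 87.7% to 89.8% of them held a Vcam1 UMI.

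The genotype difference of Vcam1 in injured tubule-like cells did not pass the test. Both Aoah-/- libraries lay above the WT one, by a log2 fold change of 0.21 ± 0.18 (SE), with an adjusted p of 0.85 in edgeR's quasi-likelihood test with Benjamini-Hochberg adjustment. That test was fitted over all genes of a class with 2 Aoah-/- libraries against 1 WT library, so the WT library was assumed to vary like the others, with 1 residual degree of freedom among libraries. Of the 8 genes, 3 had enough UMIs to be tested in this class and none was called at an adjusted p under 0.05, where 0.0579% of all genes tested were called, and none of the 3 had an unadjusted p under 0.05, against 6.93% of all genes.

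In the main body of PTEC-like cells, Vcam1 was far scarcer than in the injured cells. Vcam1 was higher there in both Aoah-/- libraries than in the WT library, with limits given below. It measured 7.79 CPM (438 UMIs) in Aoah-/- mouse 2, 7.72 CPM (386 UMIs) in Aoah-/- mouse 3 and 2.53 CPM (189 UMIs) in WT mouse 3. The groups did not overlap, and the edgeR quasi-likelihood test gave a log2 fold change of 1.62 ± 0.13, a 3.07-fold higher level, with an adjusted p of 0.036. It was the only one of 7 members tested in PTEC-like cells to be called, where 0.948% of the 14347 genes tested were called. All 7 were higher in both Aoah-/- libraries, as were 41.5% of all genes tested, and their median log2 fold change was 1.58 against 0.01 for all genes. That median is the value of Itga4, at 2.60, 2.52 and 0.856 CPM against 8.77, 11.2 and 1.66 CPM in ascending limb-like cells. Itgal and Itgb2 also lay below ascending limb-like cells in every library, and all 3 were higher in both Aoah-/- libraries there too. The part of free RNA in these integrin values was not tested. An unadjusted p under 0.05 was found for 6 of the 7 and for 27.0% of all genes.

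Other quantities moved with that result. Vcam1 in ascending limb- and distal convoluted tubule-like cells together was 1.71, 4.16 and 0.60 CPM in the same order of libraries, the 9 injury genes summed to 1126, 1056 and 462 CPM in PTEC-like cells, and the part of both in the result was not tested. RNA of 6 leukocyte genes (Ptprc, Cd52, Laptm5, Coro1a, Tyrobp and Lyz2) in PTEC-like cells was 107, 84.7 and 42.5 CPM, and none of the 6 was at 0. Leaving out cells with a UMI of these genes kept 4759 of 8269, 2662 of 4992 and 7361 of 9515 PTEC-like cells, a smaller part in both Aoah-/- libraries. This filter does not remove free RNA of other genes from the kept cells, and the part of leukocyte RNA was not tested. The Vcam1 difference among the kept cells was 2.06 on the log2 scale. With at most 20% mitochondrial UMIs per cell it was 1.71 and no longer called (adjusted p = 0.070 in the edgeR quasi-likelihood test).

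The Vcam1 UMIs of PTEC-like cells were concentrated in few cells. A Vcam1 UMI was found in 237 of 8269, 215 of 4992 and 104 of 9515 PTEC-like cells, and the 35, 24 and 11 cells with at least 3 UMIs held 47.7%, 43.0% and 43.4% of the class's Vcam1. At 1000 UMIs per cell the shares with a UMI were 0.716%, 0.541% and 0.235%, against 0.223%, 0.623% and 0.117% in the background classes. The background shares rest on few cells with a Vcam1 UMI, 1, 7 and 1 ascending limb-like and 2, 2 and 0 distal convoluted tubule-like cells. By CPM, PTEC-like cells lay above both classes together in every library, as given above. The part of free RNA was not tested. For PTEC-like cells the exact 95% intervals were 0.523% to 0.957%, 0.357% to 0.786% and 0.139% to 0.371%. They overlapped in every library with those of the background classes, which ran from 0.0459% to 0.649%, from 0.285% to 1.18% and from 0.00296% to 0.651%. Reclustering split the class, and the subcluster led by Snhg11, Malat1 and Neat1 with the early proximal gene Slc5a2 had 10.5, 10.8 and 10.6 CPM of Vcam1, with groups that overlapped. That subcluster was 8.59%, 17.0% and 3.04% of PTEC-like cells and held 35.2%, 34.7% and 37.6% of their Vcam1. In the 6 other subclusters with at least 50 cells per library, both Aoah-/- libraries lay above the WT library, as in the largest source among them, with 10.2, 8.48 and 2.07 CPM, although the scarcest of them rests on 3 to 5 UMIs per library.

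Outside the tubule, Vcam1 in macrophage-like cells came mainly from 1 subcluster, led by the heat-shock gene Hspa1b and the chemokine gene Ccl4. This subcluster had 228, 269 and 208 CPM and held 92.7%, 87.8% and 82.4% of the class's Vcam1, whereas the subcluster led by Gpnmb, which encodes a glycoprotein of phagocytes, had 9.66, 33.0 and 38.0 CPM. The Hspa1b-led subcluster was 38.7%, 69.3% and 29.3% of macrophage-like cells, whose median totals differed between libraries (1565, 4830 and 998 UMIs). It was the largest subcluster, with 2062 cells at a median of 4546.5 UMIs. Beside it lay shallow subclusters of 1553 and 434 cells, at medians of 684 and 899.5 UMIs. The part of depth in its share of Vcam1 was not tested. The genotype difference of Vcam1 in macrophage-like cells was 0.13 ± 0.16 on the log2 scale (adjusted p = 0.77, edgeR quasi-likelihood test). Fibroblast-like cells, too few to test at 52, 82 and 19 cells, carried 235, 86.6 and 18.7 CPM of Vcam1. The WT value rests on 106752 UMIs of all genes, so these levels do not measure a genotype difference. An unnamed cluster led by Dcn, Igfbp6 and C3 also scored best as fibroblast, with 11, 18 and 493 cells. It was left unnamed because it came mainly from WT mouse 3, so the class left out most such cells of that library.

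Icam1, the ligand of the β2 integrins, was spread over tubular, vascular and leukocyte classes. Injured tubule-like cells had 115, 97.6 and 108 CPM in Aoah-/- mouse 2, Aoah-/- mouse 3 and WT mouse 3, and granulocyte-like cells had 109, 108 and 136 CPM. Dendritic-like cells had 79.2 to 114 CPM, macrophage-like cells 55.2 to 73.7 CPM, endothelial-like cells 51.0 to 85.4 CPM and monocyte-like cells 41.4 to 67.1 CPM. Granulocyte-, injured tubule- and dendritic-like cells overlapped in rank order, and so did macrophage-, endothelial- and monocyte-like cells, while dendritic- and macrophage-like cells did not. An unnamed cluster led by the tubular injury genes Lcn2 and Clu and by Wfdc2 had 123, 98.0 and 92.0 CPM and held 15.8%, 15.9% and 17.1% of all Icam1 UMIs, beside 60.5 to 77.9 CPM of Vcam1.

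In PTEC-like cells Icam1 was at 8.00, 6.82 and 4.43 CPM, against 8.50, 5.81 and 3.63 CPM in both background classes together. These classes were unlike. Ascending limb-like cells had 11.6, 8.40 and 5.99 CPM, above PTEC-like cells, and distal convoluted tubule-like cells had 3.95, 2.77 and 1.80 CPM, below them. The part of free RNA in the PTEC-like level was not tested. The groups did not overlap in PTEC-like cells or in the background classes together. The genotype difference in PTEC-like cells was 0.75 ± 0.16 on the log2 scale with an adjusted p of 0.090 in the edgeR quasi-likelihood test. In injured tubule-like cells the difference was -0.01 ± 0.20 (adjusted p = 0.998, same edgeR test), with the WT value between both Aoah-/- values.

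Sele lay mainly in the endothelium. Endothelial-like cells had 19.7, 23.1 and 13.9 CPM (94, 153 and 49 UMIs), urothelial-like cells had 3.12, 1.10 and 2.57 CPM, and in no other class with 50 cells per library did it pass 0.86 CPM. It was at 0 in all 3 libraries of T lymphocyte-like cells, where the 3-UMI floor lay at 0.447 to 0.731 CPM. At 1000 UMIs per cell, 1.57%, 1.82% and 1.15% of endothelial-like cells held a Sele UMI, and 0 of 1348, 0 of 1445 and 0 of 854 background cells did, which allows a share of up to 0.223%, 0.208% and 0.351% (3 cells over the number counted, and not an exact interval). The shares rest on 16, 23 and 8 endothelial-like cells, so Sele was measured with little depth.

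The endothelial ligands met in 1 subcluster. It was led by the interferon-induced chemokine gene Cxcl10, by Rgcc and by Selp, the gene of P-selectin, and made up 13.2%, 24.3% and 16.0% of endothelial-like cells. Its Sele was 99.8, 86.8 and 79.4 CPM, which was 60.6%, 81.7% and 79.6% of the class's Sele UMIs. Vcam1 there was 250, 334 and 367 CPM and Icam1 was 152, 236 and 183 CPM. Sele was among the leading genes of this subcluster, but neither it nor Selp was used to form it.

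Elsewhere in the endothelium the ligands came apart. The subcluster led by Mgp and Cldn5 had 183, 176 and 108 CPM of Vcam1, and the one led by Aqp1 and Slc14a1, a water channel and a urea transporter gene, had 169, 212 and 244 CPM, with 0 to 4.21 CPM of Sele in both. The subcluster led by Ehd3, a gene known from glomerular endothelium, and Plat had 46.1 and 28.4 CPM of Sele in the Aoah-/- libraries and 0 in the 26 such cells of the WT library, beside 4.86, 10.3 and 12.8 CPM of Vcam1. The subcluster led by Calca had at most 17.5 CPM of Vcam1 and 2.18 CPM of Sele. At 1000 UMIs per cell, Vcam1 was found in 31.2%, 47.8% and 37.5% of Sele-holding endothelial-like cells and in 5.08%, 5.73% and 6.11% of the others, as a description over 16, 23 and 8 cells.

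**Figure D3:**
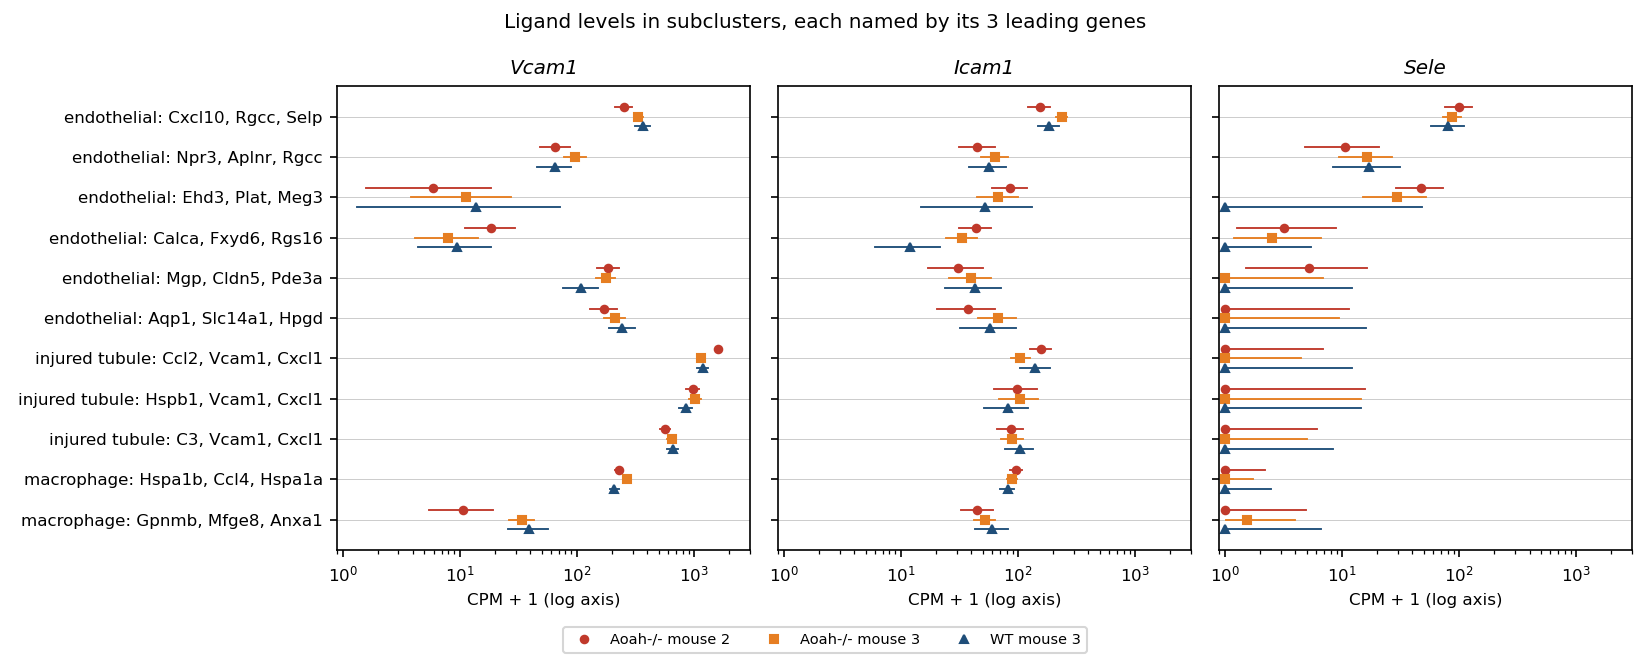
Vcam1, Icam1 and Sele in subclusters of endothelial-, injured tubule- and macrophage-like cells, each named by its 3 leading genes, as CPM + 1 on a log axis with exact Poisson 95% intervals and 1 symbol per library. The endothelial subcluster led by Cxcl10, Rgcc and Selp is high in Sele (79.4 to 99.8 CPM) and in the other 2 ligands, while the injured tubule subclusters carry Vcam1 (564 to 1609 CPM) and no Sele UMI.

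Genotype differences in the endothelium did not pass the test. For Vcam1 the WT library lay between the Aoah-/- libraries, and the log2 fold change was 0.14 ± 0.19 (adjusted p = 0.82, edgeR quasi-likelihood test with Benjamini-Hochberg adjustment). Sele lay higher in both Aoah-/- libraries by 0.61 ± 0.21 (adjusted p = 0.30, same edgeR test), and Icam1 by 0.43 ± 0.24 (adjusted p = 0.52, same edgeR test). None of the 8 members was called in endothelial-like cells, where 0.584% of genes were called. An unadjusted p under 0.05 was found for 4 of the 8, against 12.0% of genes. Those 4 were Sele and the leukocyte chains Itga4, Itgam and Itgb2, the chains at only 0.567 to 14.3 CPM. Within the Cxcl10-led subcluster the WT library was lowest for Sele, highest for Vcam1 and between the Aoah-/- libraries for Icam1.

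The integrin chains were leukocyte genes, with Itgb1 as the exception. Itga4, the α chain of the VCAM1 receptor, was highest in monocyte-like cells (593, 621 and 607 CPM), then in natural killer-like cells (524, 575 and 488 CPM) and T lymphocyte-like cells (407, 367 and 302 CPM), and the ranges of these classes did not overlap. Plasmacytoid dendritic-, dendritic- and B lymphocyte-like cells followed at 199 to 420 CPM and overlapped in turn. Granulocyte-like cells had 99.3 to 140 CPM, and macrophage-like cells had 47.7, 60.7 and 34.9 CPM. Thus the classes richest in Vcam1 after the tubule, macrophage- and endothelial-like cells, were poor in Itga4.

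Itgb1, the β chain shared by many matrix receptors, was found in every class. Endothelial-like cells (489, 508 and 424 CPM) and natural killer-like cells (444, 451 and 456 CPM) stood highest of the classes tested and overlapped, followed by T lymphocyte-like cells at 325 to 400 CPM and monocyte-like cells at 274 to 297 CPM. Fibroblast-like cells, too few to test, had 693 to 747 CPM. PTEC-like cells had 99.7, 102 and 76.9 CPM but, being numerous, held 22.1%, 22.6% and 38.1% of all Itgb1 UMIs. In B lymphocyte-like cells Itgb1 was 161 CPM in Aoah-/- mouse 2 against 48.0 and 39.4 CPM in the other libraries, so 1 library stood apart.

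**Figure D4:**
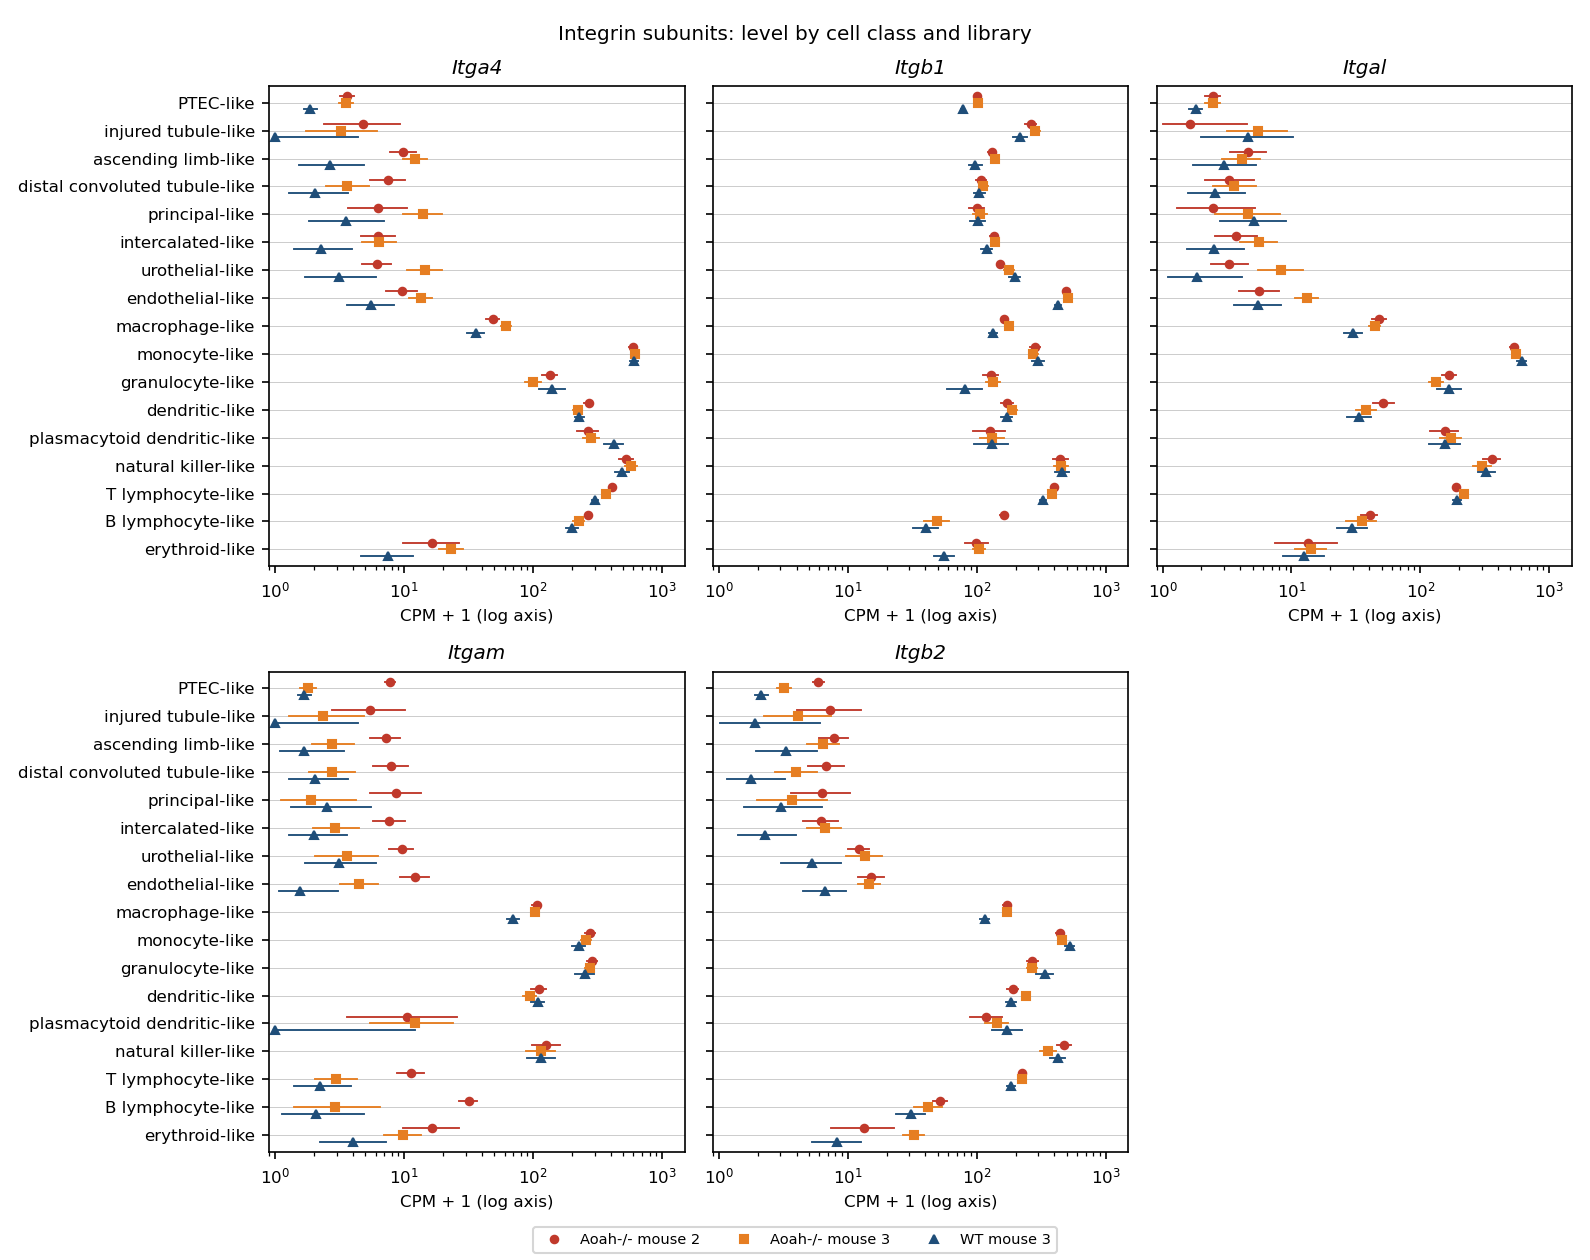
Levels of the 5 integrin subunits in the same 17 classes, as CPM + 1 on a log axis with exact Poisson 95% intervals and 1 symbol per library. Itga4, Itgal and Itgb2 stand at 100 CPM or more in most leukocyte classes and at 13.1 CPM or less in tubular classes, Itgam is highest in granulocyte- and monocyte-like cells (226 to 286 CPM), and Itgb1 is at 39.4 CPM or more in every class.

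The β2 integrin chains Itgal and Itgam shared several classes but ranked them in different orders. Itgal was highest in monocyte-like cells (528, 555 and 608 CPM), then in natural killer-like cells (302 to 356 CPM) and T lymphocyte-like cells (189, 218 and 193 CPM), with no overlap between these classes. Plasmacytoid dendritic-like cells at 154 to 171 CPM and granulocyte-like cells at 131 to 167 CPM overlapped. Itgb2, the chain both pairs share, was at 438 to 524 CPM in monocyte-like cells, 358 to 477 CPM in natural killer-like cells and 266 to 335 CPM in granulocyte-like cells. Macrophage-like cells had 171, 171 and 114 CPM of Itgb2 and only 29.1 to 46.8 CPM of Itgal.

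Itgam, the myeloid chain of Mac-1, was highest in granulocyte-like cells (286, 273 and 251 CPM) and monocyte-like cells (275, 257 and 226 CPM), which overlapped. Natural killer-like cells had 114 to 125 CPM, dendritic-like cells 93.0 to 109 CPM, and macrophage-like cells 105, 102 and 68.4 CPM. The highest level of all lay outside the named classes, in an unnamed cluster led by Saa3, Fn1 and Slpi with 1464, 1889 and 1163 CPM. This cluster scored best as macrophage and was left unnamed because it came mainly from Aoah-/- mouse 2. It had 1390 cells in Aoah-/- mouse 2 against 13 in Aoah-/- mouse 3 and 78 in WT mouse 3, and held 82.3%, 6.10% and 38.6% of Itgam UMIs. Itgam in PTEC-like cells was 6.76 CPM in Aoah-/- mouse 2 and 0.780 and 0.669 CPM in the other libraries, and most other non-myeloid classes showed the same order. All totals of Itgam or Itgb2 over a whole library of Aoah-/- mouse 2 therefore rest on that cluster, which also held 53.2% of the library's Itgb2.

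Whether the chains of a pair were found in the same cells differed with the pair and the class, at 1000 UMIs per cell. Among the sums of 1 class in 1 library with at least 20 cells holding each chain, the β chain was more frequent in cells that held the α chain in 13 of 22 for Itga4 with Itgb1, 13 of 16 for Itgal with Itgb2 and 11 of 15 for Itgam with Itgb2. Of Itga4-holding T lymphocyte-like cells, 33.8%, 36.3% and 29.6% held Itgb1, against 28.1%, 27.2% and 22.0% of the other T lymphocyte-like cells. For Itgal and Itgb2 in the same class the shares were 24.5%, 24.1% and 22.3% against 18.4%, 18.4% and 16.5%. For Itgam and Itgb2 in monocyte-like cells they were 40.0%, 38.1% and 47.0% against 35.8%, 31.7% and 38.1%. In monocyte-like cells, which held the most Itga4, the shares for Itga4 and Itgb1 were 23.0%, 21.2% and 31.4% against 23.7%, 24.8% and 22.7%, lower beside Itga4 in both Aoah-/- libraries. They were also lower for Itgal and Itgb2 in granulocyte-like cells of WT mouse 3 (23.5% against 32.3%) and for Itgam and Itgb2 in its macrophage-like cells (5.26% against 7.53%). The shares are low because 1000 UMIs per cell seldom catch any 1 chain, and they were not tested, since cells of 1 library are not replicates.

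None of the 5 integrin chains among the members was called between genotypes in a leukocyte class. In macrophage-like cells Itgam differed by 0.44 ± 0.14 on the log2 scale and Itgb2 by 0.42 ± 0.14, both with an adjusted p of 0.20 in the edgeR quasi-likelihood test. Itga4 differed by 0.48 ± 0.17 there (adjusted p = 0.23, same edgeR test) and Itgb1 by 0.20 ± 0.14 (adjusted p = 0.55, same edgeR test). Of 7 members tested in macrophage-like cells 0 were called, where 0.859% of genes were, and 4 of the 7 had an unadjusted p under 0.05, against 13.2% of genes. The class included a shallow cluster with a median of 753 UMIs and 12 PTEC markers at 2-fold. That cluster was 900 of 1693, 140 of 1276 and 1164 of 1784 macrophage-like cells. The class left out the unnamed cluster led by Saa3, Fn1 and Slpi, and the part of this make-up in the differences was not tested.

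In T lymphocyte-like cells no member was called either. The class joined a cluster led by Ccl5, Nkg7 and Ms4a4b (1285, 1191 and 521 cells) and one led by Cd3d, Cd3g and Icos (747, 750 and 739 cells). Its make-up thus differed between the Aoah-/- libraries and the WT library, and the part of this in the differences was not tested. Itga4 differed by 0.33 ± 0.11 on the log2 scale with an adjusted p of 0.34 (edgeR quasi-likelihood test). Itgal differed by 0.05 ± 0.11 (adjusted p = 0.94, same edgeR test), with the WT library between the Aoah-/- ones. Of 7 members tested 0 were called, where 0.594% of genes were, and 5 of the 7 had an unadjusted p under 0.05, against 9.54% of genes. In granulocyte-like cells Itgam differed by 0.03 ± 0.19 and Itgb2 by -0.45 ± 0.17 (adjusted p = 0.98 and 0.72, same edgeR test). There 0 of 7 members were called, where 0.0108% of genes were, and 2 of the 7 had an unadjusted p under 0.05, against 6.63% of genes.

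**Figure D5:**
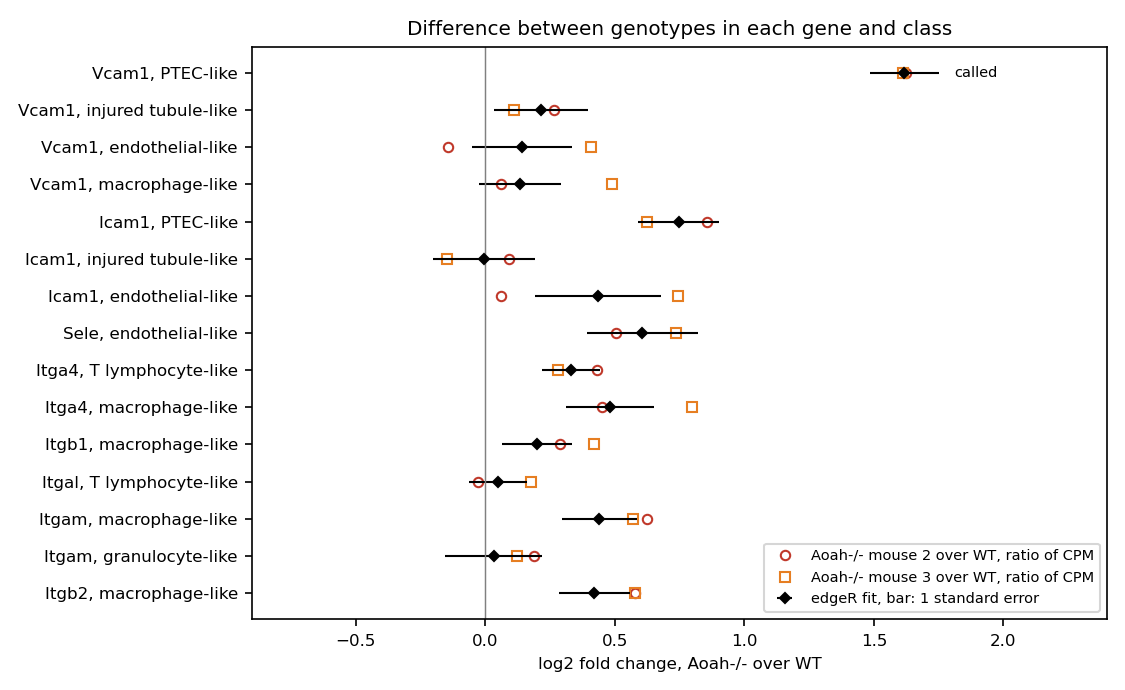
Log2 fold change of Aoah-/- over WT for 15 pairs of gene and class, with open symbols for each Aoah-/- library's raw CPM ratio to the WT library and diamonds with 1 SE for the edgeR fit, which also scaled the libraries and so can lie below both ratios. Vcam1 in PTEC-like cells (1.62 ± 0.13) is the pair that was called, while Vcam1 in injured tubule-like cells (0.21 ± 0.18) and in endothelial-like cells (0.14 ± 0.19) lies near 0.

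Across all 17 classes, 109 of the 136 pairs of member and class could be tested, and 3 were called, all of them higher in Aoah-/-. Beside Vcam1 in PTEC-like cells these were Itga4 and Itgb1 in ascending limb-like cells, where 5.79% of genes were called. Itga4 was at 8.77, 11.2 and 1.66 CPM there (log2 fold change 2.61 ± 0.51, adjusted p = 0.0013, edgeR quasi-likelihood test) and Itgb1 at 130, 138 and 96.4 CPM (0.52 ± 0.13, adjusted p = 0.017, same edgeR test). Neither call held in DESeq2 or without the filter on low counts, and Itga4 was at 1.74 and not called (adjusted p = 0.39, same edgeR test) without cells that held leukocyte UMIs. That alternative kept 519 of 1014, 411 of 887 and 369 of 502 cells. The 6 leukocyte genes summed to 174, 178 and 100 CPM in all ascending limb-like cells. In the 10 other classes together, 0 of 63 tests of members were called, where 0.966% of all tests were. An unadjusted p under 0.05 was found in 19 of the 63, against 8.82% of all tests.

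The wider adhesion list of 35 genes, which holds the other selectins, junction proteins and the proteins that switch integrins on, gave few calls. Those that fell in Aoah-/- were all in monocyte-like cells, and the rest were higher in Aoah-/-. In endothelial-like cells 2 of 33 tested were called, where 0.584% of all genes were, and 0 fell. Selp was at 26.0, 26.3 and 9.92 CPM (log2 fold change 1.37 ± 0.21, adjusted p = 0.030, edgeR quasi-likelihood test) and Itga6, a laminin receptor chain, at 146, 135 and 86.2 CPM (0.68, adjusted p = 0.045, same edgeR test). Both calls were lost with DESeq2 size factors in the fit and in DESeq2 itself. In T lymphocyte-like cells 1 of 30 was called (0.594% of all genes), Itgax, the αX chain, at 26.7, 30.3 and 7.56 CPM (1.88 ± 0.24, adjusted p = 0.0034, same edgeR test). The part of the different make-up of this class, given above, was not tested. In monocyte-like cells 3 of 24 were called, where 1.91% of all genes were, and 2 of them fell. Spn, which encodes the sialoglycoprotein CD43, fell by 0.52 on the log2 scale (240.8, 242 and 335 CPM, adjusted p = 0.0066, same edgeR test), and Rasgrp2, an activator of the integrin switch Rap1, fell by 0.46 (156, 185 and 228 CPM, adjusted p = 0.040, same edgeR test). In intercalated-like cells 1 of 26 was called (1.36% of all genes), Cd44, which was higher in Aoah-/- at 6.51, 7.70 and 0.755 CPM. Its WT value lay at the 3-UMI floor. The leukocyte chains Itga4 (5.31, 5.42 and 1.26 CPM) and Itgb2 (5.14, 5.60 and 1.26 CPM) were also higher in both Aoah-/- libraries there. The part of leukocyte RNA in the Cd44 value was not tested. In ascending limb-like cells 5 of 28 were called (5.79% of all genes), and Selplg, Cd44, Itgav, Itga6 and Apbb1ip were all higher in Aoah-/-. None of 33 was called in PTEC-like cells, where 19 of the 33 had an unadjusted p under 0.05, against 27.0% of all genes. None of 30 was called in macrophage-like or of 28 in granulocyte-like cells. Both falls in monocyte-like cells were no longer called in DESeq2 and at the finer clustering of resolution 2, and the calls in intercalated- and ascending limb-like cells were lost without the filter on low counts. The genes of these 3 classes were named after their values were seen.

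The partners of the members on that list had sources of their own. Selplg, the selectin ligand of leukocytes, was at 345 to 417 CPM in T lymphocyte-like, 311 to 428 CPM in granulocyte-like and 230 to 245 CPM in monocyte-like cells. Cd44 was at 801 to 922 CPM in granulocyte-like cells and 131 to 179 CPM in injured tubule-like cells. Icam2, a second LFA-1 ligand, was at 315 to 366 CPM and Pecam1, the junction protein leukocytes pass through, at 901 to 941 CPM in endothelial-like cells. Madcam1, the gut ligand of the α4β7 integrin, was at 0 in endothelial-like cells of all 3 libraries although Itgb7 was at 163 to 215 CPM in T lymphocyte-like cells.

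The genes whose levels ran most like each member's over the 51 sums of 17 classes and 3 libraries were taken from 13073 genes by Pearson's r of log2(CPM + 1). Vcam1 ran with Nes (0.874), Pdgfb (0.852) and Cxcl1 (0.845), and Icam1 with Nfkbia (0.926), Snx10 (0.886) and Csrnp1 (0.879). Sele ran with Sulf1 (0.943), Meox1 (0.940) and Fbln5 (0.933). Itga4 ran with Ikzf1 (0.980), Dock2 (0.979) and Arhgap30 (0.973), and Itgb1 less closely with Pdcd6ip (0.861), Atp10a (0.846) and Vopp1 (0.830). Itgal ran with Bin2 (0.954), Ptprc (0.953) and Selplg (0.952), Itgam with Fcgr3 (0.919), Osm (0.899) and Emilin2 (0.893), and Itgb2 with Bin2 (0.972), Laptm5 (0.972) and Lcp1 (0.969). The sums of 1 class share cell type and the sums of 1 library share depth, so these values describe the points and carry no test.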

How the data were processed

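Kidney cells of 3 mice, freed with collagenase IV and DNase I, were sequenced with Chromium 3′ v2 chemistry. The deposited matrices hold raw UMI counts per gene and barcode, made by the authors with Cell Ranger (3.1.0 in the submitters' processing notes, 6.1.2 in the file headers), STAR and mm10. Replicates are separate mice by their labels. The p-values rest on the spread between the Aoah-/- libraries, with variance shared over genes, and hold no spread among WT mice.

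Barcodes under 200 genes or over 50% mitochondrial UMIs were dropped, 16.3% to 21.1% of a library. Cells were clustered in scanpy 1.11.5 (Leiden, resolution 1) and named from marker lists. Doublets were kept, since Scrublet called 544, 0 and 201 cells and had not worked in Aoah-/- mouse 3. Each library's UMIs in a class were added up and the sums tested with edgeR 4.0.16 (quasi-likelihood test, TMM factors, filterByExpr, Benjamini-Hochberg over all genes of the class) in classes with at least 50 cells per library, and DESeq2 1.42.0 was an alternative. Scripts were tested on simulated data. Genes were read by Ensembl identifier, and a second entry named Itgam, which overlaps it, was left out of the member.

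The members and lists were chosen with earlier results of these data known. The 8 members, the pathway genes called in the main leukocyte, endothelial and PTEC-like classes and 11 fixed partners are named, with 3 genes most like each member. Subclusters and other classes were named in the text after their values were seen. A result of the wider adhesion list is not reported here.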

Additional observations from a re-analysis of the deposited data

Results flagged for a closer look

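The unnamed cluster led by Saa3, Fn1 and Slpi lay outside every comparison of classes, and it held 82.3% of the Itgam UMIs of Aoah-/- mouse 2. Its markers scored best as macrophage, with 7 macrophage markers at 2-fold. It was left unnamed because Aoah-/- mouse 2 made up 92.9% of it after scaling for cells per library, above the limit of 80%. It had 1390, 13 and 78 cells in Aoah-/- mouse 2, Aoah-/- mouse 3 and WT mouse 3.

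A second entry of the gene list carried the symbol Itgam and held 523 UMIs over all kept cells, against 20748 for Itgam itself. By its identifier it is Gm49368, at chr7:128062683-128128160 on the plus strand, which overlaps Itgam, and the division of reads between both entries is uncertain.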

How the results depend on the processing

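The 12 results fixed for testing took 131 values under the alternatives, of which 124 kept their direction and their side of the threshold. Vcam1 in PTEC-like cells was 1.71 on the log2 scale and no longer called with at most 20% mitochondrial UMIs, and 1.59 to 1.62 when either Aoah-/- library was left out. Icam1 in PTEC-like cells was 0.85 and called with injured tubule-like cells counted in (adjusted p = 0.048, edgeR), an alternative chosen after seeing the data. Itgam in macrophage-like cells was 0.50 and called without the cells of highest Scrublet score (adjusted p = 0.026, edgeR). Itgam in granulocyte-like cells, near 0 throughout, was -0.028 with at most 20% mitochondrial UMIs, -0.078 without the cells of highest Scrublet score, -0.057 at resolution 2 and -0.045 with adhesion genes kept in the clustering, and 0.0066 to 0.14 with either Aoah-/- library left out. The cause was not tested. Vcam1 in macrophage-like cells was -0.012 without the cells of highest Scrublet score and -0.13 under loose naming. With either Aoah-/- library left out, Vcam1 in endothelial-like cells ran from -0.16 to 0.38 and Itgal in T lymphocyte-like cells from -0.03 to 0.13, values with no test. For the 27 other genes and classes named, 211 of 269 values stayed the same, 50 lost a call, 6 gained one and 2 changed sign. Genes called in PTEC-like cells numbered 136, and 10 (at most 20% mitochondrial UMIs) to 608 (same lowest UMI total) under alternatives. For macrophage-like cells the count was 100, and 0 to 399. It was 72, and 16 to 502, in endothelial-like cells, 69, and 24 to 291, in T lymphocyte-like cells, 718, and 0 to 937, in ascending limb-like cells, 1, and 8 to 114, in granulocyte-like cells, and 6, and 0 to 152, in injured tubule-like cells. Of 18 shares of cells with a UMI, all were higher unthinned or at 2000 UMIs per cell and lower at 500. Subclusters led by genes of another class made up 13.2% of endothelial-like and 9.76% of macrophage-like cells, and leaving them out changed no call of a member.

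No paired analysis was possible because the genotypes share only replicate number 3, and the only WT library could not be left out. Depth limits Sele most, with 358 UMIs in all kept cells.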
